A study of Mus musculus with 14 samples.

Results

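The Wnt ligands measured here are 6 genes, Wnt4, Wnt5a, Wnt5b, Wnt6, Wnt7b and Wnt10a, taken as every array probe annotated with 1 of these symbols. Together they had 12 probes among the 45281 on the array, and 11 of these were among the 20906 probes bright enough to be tested, which covered 11350 genes. RNA came from mammary epithelium of female FVB/NJ mice, an inbred strain, and was hybridised to 14 single-colour Illumina BeadChips. Leukocytes, endothelium and erythroid cells had been depleted by CD45, CD31 and TER119. The remaining cells were split by sorting into a CD29hi CD24+ fraction in which mammary stem cells are enriched (the MaSC-enriched fraction) and a CD29lo CD24+ luminal fraction. The labels put the purity above 90%. Glands were pooled over mice: each fraction was taken from 3 pools of virgin mice and from 4 pools of mice at day 12.5 of pregnancy (12.5 dP), which gave 4 groups of 3 or 4 arrays. All mice carried the same strain background and the labels give no other allele or treatment. The CD29hi CD24+ gate enriches for stem cells but also holds the other basal cells of the gland, so its values are those of the whole fraction.

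Wnt proteins are secreted glycoproteins that carry a lipid added by the acyltransferase Porcn and leave the cell on the carrier Wls. They bind Frizzled receptors with the co-receptors Lrp5 and Lrp6, which stabilises beta-catenin, or they act through receptors such as Ror2 independently of beta-catenin. In the mouse mammary gland Wnt4 is known as a progesterone-driven paracrine ligand needed for side branching in pregnancy, and beta-catenin signalling is known to maintain basal stem cells.

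Upstream sequences from RefSeq (mouse GRCm38.p6) covered 3 of the 6 genes: Wnt4 and Wnt6 with 1 transcription start each and Wnt5b with 3. The 250 bases before the start of Wnt4 and of Wnt6 are shown, since only starts on the plus strand were printed. Wnt4 was higher in luminal cells and Wnt6 was above background in MaSC-enriched cells alone. Wnt5b, also higher in luminal cells, is not shown. Capitals mark CG dinucleotides.
Wnt4, chr4:137277385-137277634, plus strand: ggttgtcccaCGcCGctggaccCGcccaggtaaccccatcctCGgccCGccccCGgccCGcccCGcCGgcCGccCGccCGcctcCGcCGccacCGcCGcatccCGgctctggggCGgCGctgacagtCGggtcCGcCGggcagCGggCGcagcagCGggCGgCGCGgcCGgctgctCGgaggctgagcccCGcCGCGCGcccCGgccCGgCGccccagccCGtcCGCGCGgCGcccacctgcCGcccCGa
Wnt6, chr1:74771642-74771891, plus strand: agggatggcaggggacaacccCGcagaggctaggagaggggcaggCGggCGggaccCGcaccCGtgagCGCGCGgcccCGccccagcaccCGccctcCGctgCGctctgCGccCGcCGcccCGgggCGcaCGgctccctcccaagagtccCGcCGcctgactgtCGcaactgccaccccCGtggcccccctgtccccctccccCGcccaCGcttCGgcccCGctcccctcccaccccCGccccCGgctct

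Both stretches were rich in G and C. The Wnt4 sequence was 85.2% G and C with 44 CG dinucleotides, and 0.143% of 32851 annotated upstream stretches of that length were as GC-rich. The Wnt6 sequence was 79.6% G and C with 28 CG dinucleotides, and 1.39% of all stretches reached that content. The median over all stretches was 52.4% with 6 CG dinucleotides. On both strands, neither sequence held CAAAG (the core recognised by TCF and LEF factors, in 48.6% of all stretches), AGAACA (a steroid receptor motif, in 16.1%) or TTCNNNGAA (a STAT motif, in 7.02%), which says only that these letters do not occur in these windows. Each of these motifs did occur in at least 1 of the Wnt5b windows, which are not shown. Wnt6 and Wnt10a are neighbouring protein-coding genes on chromosome 1 in the same annotation.

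Levels are log2 of background-corrected, quantile-normalized probe intensity in arbitrary units. A probe counted as above background on an array when its deposited detection p-value was below 0.05. The letters A, B and C rank the probes of a gene by mean level, and a gene is described by its probe A unless stated. Differences were tested with limma over all 14 arrays, with Benjamini-Hochberg adjustment across the 20906 probes and a threshold of 0.05. Differences are pregnant minus virgin, or MaSC-enriched minus luminal. The number of arrays limits the precision, and because the labels describe pools, p-values measure the spread between pools rather than between single mice. In bulk samples such as these, fewer cells of a type and less RNA per cell cannot be told apart.

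Between 34.8% and 42.3% of probes were above background on an array. Of the markers of depleted cells, 4 or 5 of 5 endothelial and 2 or 3 of 3 leukocyte markers were above background on each array. At 12.5 dP all 5 endothelial markers were higher in MaSC-enriched than in luminal cells, against 20.1% of all genes. Replicate arrays correlated at 0.977 to 0.988 over all tested probes in pregnant MaSC-enriched cells, at 0.965 to 0.990 in pregnant luminal, at 0.949 to 0.976 in virgin luminal and at 0.908 to 0.941 in virgin MaSC-enriched cells. The virgin MaSC-enriched arrays therefore stood furthest apart. Replicate 3 of that group had log2 9.84 for the basal keratin Krt5, against 12.58 and 12.49 in replicates 1 and 2, and its summed linear level of 10 luminal markers was 30557 against 20626 and 19230. Replicate 2 was alone on its chip, while the other 13 arrays shared 3 chips. Pregnant MaSC-enriched replicates 1 to 3 were together on 1 chip that held no virgin MaSC-enriched array. Pregnant replicate 4 shared a chip with virgin replicate 3 of that fraction. Pregnancy and chip were thus largely confounded in MaSC-enriched cells. The labelled fractions carried their markers: 9 basal markers summed to 74802 to 94859 on the MaSC-enriched arrays and to 4969 to 33698 on the luminal arrays, while the luminal markers summed to 19230 to 31701 and to 71927 to 90303. In luminal cells the basal sum was 4969 to 20234 in virgin and 27084 to 33698 in pregnant mice. Of the 9 markers 4 rose there and 0 fell, against 10.9% and 10.7% of all genes. Krt14, in that sum, was at log2 9.78 to 12.32 in virgin and 13.65 to 13.79 in pregnant luminal cells. Krt5, also in it, was above background on no luminal array.

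The fractions differed in their ligands. In virgin mice all 6 genes differed between the fractions, against 32.0% of all tested genes: Wnt6 and Wnt10a were higher in MaSC-enriched cells, and Wnt4, Wnt5a, Wnt5b and Wnt7b were higher in luminal cells. Of all tested genes, 15.5% were higher in MaSC-enriched cells and the remaining called genes in luminal cells. At 12.5 dP 5 of 6 differed, against 43.1% of all genes. Wnt6, Wnt10a and now Wnt5a were higher in MaSC-enriched cells, Wnt4 and Wnt5b were higher in luminal cells, and Wnt7b was above background in neither, while 20.1% of all genes were higher in MaSC-enriched cells. With pregnancy, 2 of 6 changed in luminal cells (21.6% of all genes, 10.9% rising and 10.7% falling), where Wnt5a and Wnt7b fell, and 2 of 6 changed in MaSC-enriched cells (5.07% of all genes, 2.78% rising and 2.29% falling), where Wnt7b fell and Wnt6 rose. On the MaSC-enriched arrays the summed linear level of 7 alveolar markers, chiefly milk proteins, went from 14345 to 24018 in virgin to 90703 to 113174 in pregnant mice, 6 of the 7 rose, and their part in the MaSC-enriched results was not tested. The pregnancy difference itself differed between the fractions for 2 of 6, Wnt5a and Wnt7b, against 8.62% of all genes. The other 4 had no such difference past the threshold. A gene was tested only with a probe above background on at least 3 arrays. Wnt6 and Wnt10a met this through MaSC-enriched arrays alone, and Wnt7b through virgin arrays alone. Of 13 other ligand genes with a probe, 1 was tested. The counts therefore describe these 6 genes and do not measure how often Wnt ligands differ.

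**Figure D1:**
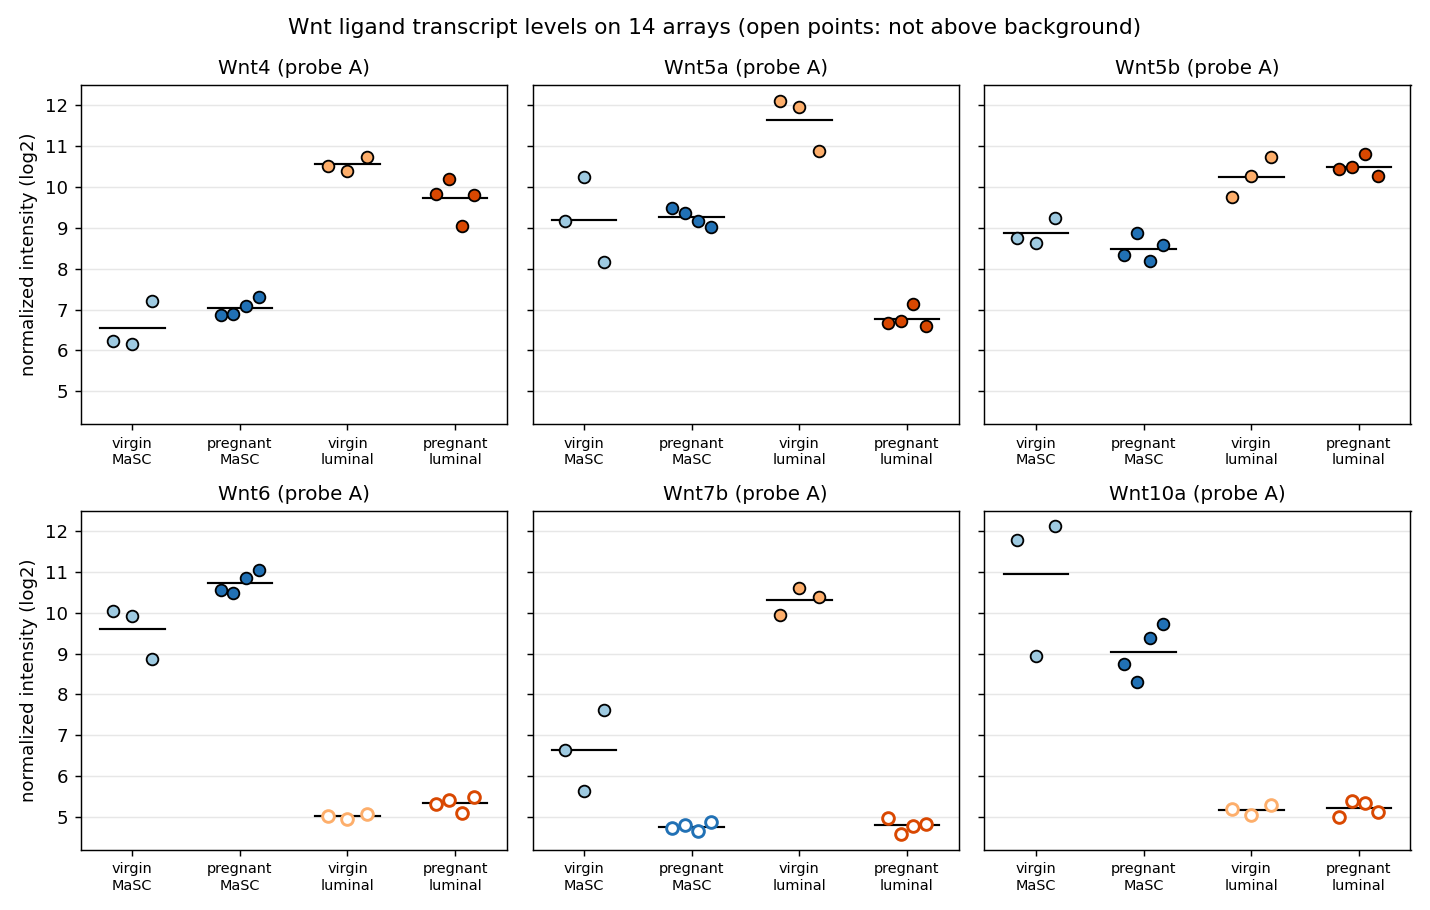
Normalized log2 intensity of probe A of each Wnt ligand on all 14 arrays, with a line at each group mean and open points for arrays on which the probe was not above background. Wnt5a and Wnt7b were highest in virgin luminal cells (means of 11.64 and 10.31) and Wnt6 and Wnt10a lay at background on every luminal array.

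Wnt5a is best known for signalling independent of beta-catenin through Ror2, and in the mouse mammary gland it is known to restrain duct growth and branching. In virgin luminal cells its log2 level was 12.10, 11.95 and 10.88 in replicates 1 to 3, and in pregnant luminal cells it was 6.67, 6.71, 7.12 and 6.60 in replicates 1 to 4. In MaSC-enriched cells it was 9.16, 10.25 and 8.16 in virgin mice and 9.48, 9.37, 9.17 and 9.01 at 12.5 dP. Every virgin luminal array was thus above every MaSC-enriched array, every pregnant luminal array was below them, and the MaSC-enriched groups overlapped.

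In luminal cells Wnt5a fell by 4.87 on the log2 scale (SE 0.39, 29.2-fold, adjusted p = 7.03e-07). The difference in MaSC-enriched cells was 0.07 (95% interval -0.77 to 0.91, adjusted p = 0.951). Subtracting the luminal from the MaSC-enriched pregnancy difference gave an interaction of 4.94 (SE 0.56, adjusted p = 7.34e-05). The order of the fractions therefore turned: Wnt5a was 5.48-fold higher in luminal cells of virgin mice (adjusted p = 0.000387) and 5.59-fold higher in MaSC-enriched cells at 12.5 dP (adjusted p = 6.57e-05).

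Wnt5a probe B gave the same calls, with a fall of log2 4.55 in luminal cells (adjusted p = 3.23e-06) and an interaction of 4.29 (adjusted p = 0.000537). It was above background on 1 of 4 pregnant luminal arrays. Probe C was above background on virgin luminal replicates 1 and 3 alone and was not tested. Within each of the 3 chips that held virgin and pregnant luminal arrays, the Wnt5a difference was between -5.41 and -4.28.

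Because fibroblasts express Wnt5a in many tissues, fibroblast markers were read on the same arrays. Their summed linear level over 9 genes was 21319, 31836 and 12688 in virgin luminal replicates 1 to 3 and 3416, 3936, 14205 and 7061 in pregnant luminal replicates 1 to 4, with 7 to 9 of the 9 above background on each array. The groups overlapped, with virgin replicates 1 and 2 above all 4 pregnant arrays and virgin replicate 3 inside their range. Of these 9 markers 1 rose and 1 fell in luminal cells, near the 10.9% and 10.7% of all genes that did so. Their median difference was 0.17 against 0.05 over all genes. On the MaSC-enriched arrays the same sum was 29255, 29531 and 18731 in virgin replicates 1 to 3 and 24938 to 34871 in pregnant mice. In pregnant mice every MaSC-enriched array was above every luminal array, while in virgin mice the fractions overlapped. The part of fibroblasts in the Wnt5a results, the luminal fall and the turned order of the fractions, was not tested.

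Wnt7b, a ligand known from lung and kidney development that can signal through beta-catenin, showed the other large change. In virgin luminal cells its level was 9.95, 10.61 and 10.38, and in pregnant luminal cells it was 4.98, 4.58, 4.79 and 4.83. In virgin MaSC-enriched cells it was 6.64, 5.63 and 7.62, and in pregnant MaSC-enriched cells it was 4.73, 4.82, 4.66 and 4.87. All 6 virgin arrays were above background and none of the 8 pregnant arrays was, so the states did not overlap in either fraction.

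Where no array of a group was above background, a fold is given as a lower bound, taken against the lowest signal above background on each array of that group or the probe's own level where that was higher. On this basis Wnt7b fell at least 21.8-fold in luminal cells (adjusted p = 3.94e-08) and at least 1.95-fold in MaSC-enriched cells (adjusted p = 0.00513). In virgin mice it was 12.8-fold higher in luminal than in MaSC-enriched cells (adjusted p = 1.46e-06). At 12.5 dP no comparison of levels was possible, since both fractions were at background. The interaction was 3.66 (SE 0.48, adjusted p = 0.000273), a fitted value that rests on 2 groups at background.

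Wnt7b probe B was above background on the 3 virgin luminal arrays, at 8.20, 8.52 and 8.47, and on no other array. It fell at least 5.78-fold in luminal cells (adjusted p = 4.82e-09), and its interaction was 3.29 (adjusted p = 2.39e-06). In MaSC-enriched cells probe B was at background in both states, with a difference of -0.29 (adjusted p = 0.360), so the fall there rested on probe A. The fitted difference of probe A, taken against levels at background and so no measured fold, was -1.86 over all arrays and passed the threshold without each array in turn. It was -1.37 without virgin MaSC-enriched replicate 3 and -0.83 without background correction. Across the virgin MaSC-enriched replicates, Wnt7b levels of 6.64, 5.63 and 7.62 stood beside luminal-marker sums of 20626, 19230 and 30557, and the part of luminal cells in the MaSC-enriched value was not tested. In luminal cells the difference from those background levels was between -5.82 and -5.17 within chips.

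The falls of Wnt5a and Wnt7b went with those of hormone-sensing luminal markers. Of 7 such markers tested, 6 fell and 1 rose in luminal cells, against 10.7% and 10.9% of all genes. Their median difference was -2.90 against 0.05 over all genes. The summed linear level of these markers went from 12168 to 22357 in virgin to 1884 to 3329 in pregnant mice. The oestrogen receptor Esr1 fell by 2.60 on the log2 scale (adjusted p = 4.51e-07), and the progesterone receptor Pgr was above background on all 3 virgin and none of the 4 pregnant luminal arrays (adjusted p = 5.88e-05). The marker that rose was Tnfsf11, the RANK ligand, which went from a mean of 6.29 to 9.98 (adjusted p = 3.73e-06). On the MaSC-enriched arrays these markers summed to 1131 to 2279 in virgin and to 879 to 1185 in pregnant mice. Their part in the ligand results was not tested.

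Wnt4, the progesterone-driven ligand, was above background on every luminal array. Its level was 10.51, 10.39 and 10.74 in virgin and 9.83, 10.19, 9.05 and 9.81 in pregnant luminal cells. It was 6.23, 6.17 and 7.22 in virgin and 6.86, 6.89, 7.10 and 7.30 in pregnant MaSC-enriched cells. Every luminal array was above every MaSC-enriched array, all 4 pregnant luminal arrays were below the 3 virgin ones, and the MaSC-enriched groups overlapped.

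Wnt4 was 16.1-fold higher in luminal than in MaSC-enriched cells of virgin mice (adjusted p = 1.38e-07) and 6.43-fold higher at 12.5 dP (adjusted p = 1.33e-06). The pregnancy difference in luminal cells was -0.83 (SE 0.29, 95% interval -1.45 to -0.21) and missed the threshold at adjusted p = 0.0597. It passed under 6 of 11 other ways of processing and when any of 3 arrays was left out: pregnant luminal replicate 2 (adjusted p = 0.0397), or replicate 2 (0.0490) or 3 (0.0227) of the virgin MaSC-enriched group. Within chips it ran from -1.34 to -0.50, and relative to the median of all probes it was -0.88, or -0.93 with median scaling. In MaSC-enriched cells the difference was 0.50 (95% interval -0.12 to 1.12, adjusted p = 0.386). The interaction of 1.33 (SE 0.41) had an adjusted p of 0.0652, and it was 1.66 without virgin MaSC-enriched replicate 3 (adjusted p = 0.0115). Wnt4 probe B gave the same calls, with a luminal difference of -0.54 (adjusted p = 0.331) and overlapping luminal groups.

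Wnt5b, the close relative of Wnt5a, was higher in luminal cells in both states. Its level was 9.75, 10.26 and 10.73 in virgin and 10.44, 10.49, 10.80 and 10.27 in pregnant luminal cells. In MaSC-enriched cells it was 8.74, 8.62 and 9.24 in virgin and 8.34, 8.86, 8.18 and 8.57 in pregnant mice. The fractions did not overlap, and the virgin and pregnant arrays of each fraction did. Wnt5b was 2.61-fold higher in luminal cells of virgin mice (adjusted p = 0.00129) and 4.03-fold higher at 12.5 dP (adjusted p = 7.51e-06). Its pregnancy difference was 0.25 in luminal cells (95% interval -0.30 to 0.80, adjusted p = 0.570) and -0.38 in MaSC-enriched cells (95% interval -0.92 to 0.17, adjusted p = 0.470). These intervals leave out a change of the size seen for Wnt5a in luminal cells.

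**Figure D2:**
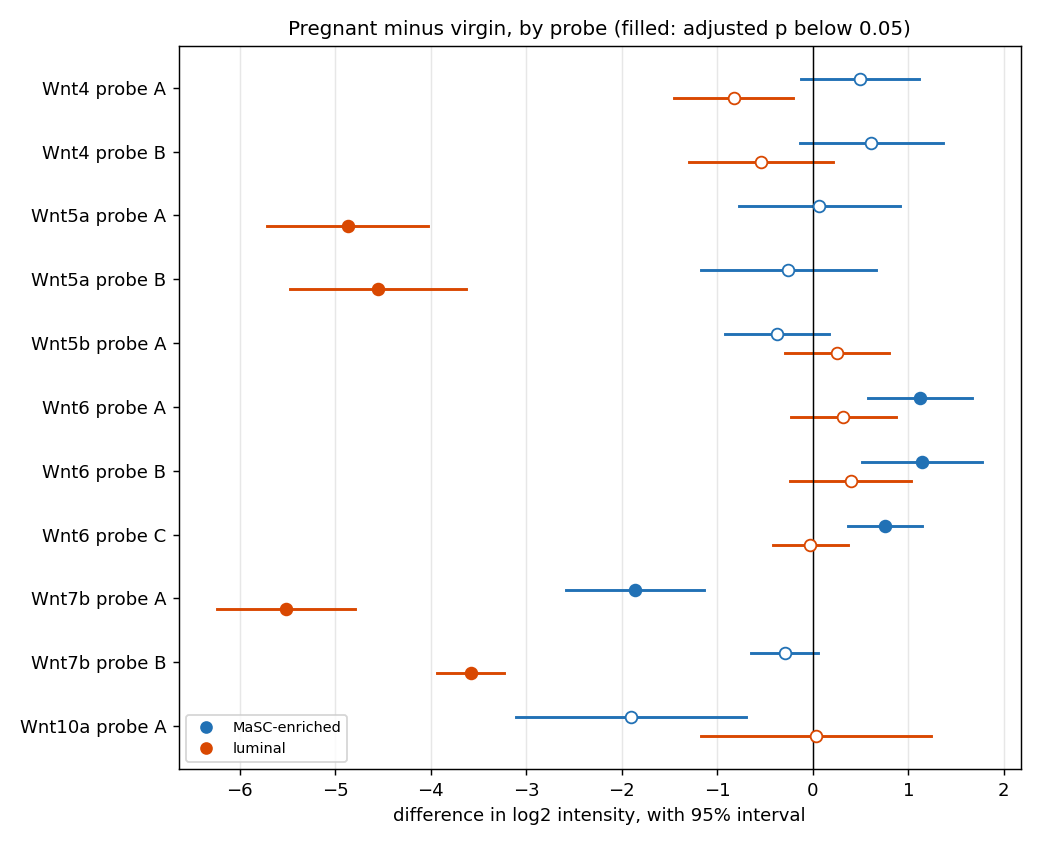
Pregnant minus virgin difference in log2 intensity for the 11 tested Wnt ligand probes in each fraction, with 95% intervals and filled points for adjusted p below 0.05. Both Wnt5a probes fell in luminal cells (-4.87 and -4.55), as did both Wnt7b probes, whose points are fitted against levels at background (at least 21.8-fold and 5.78-fold), and the 3 Wnt6 probes rose in MaSC-enriched cells.

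Wnt6 is a ligand that acts through beta-catenin in several tissues, and here it was read above background in the MaSC-enriched fraction alone. Its level was 10.03, 9.92 and 8.87 in virgin and 10.55, 10.49, 10.84 and 11.03 in pregnant MaSC-enriched cells. In luminal cells it was 5.03, 4.95 and 5.09 in virgin and 5.33, 5.42, 5.11 and 5.50 in pregnant mice. No luminal array was above background, and every pregnant MaSC-enriched array was above every virgin one.

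Wnt6 was at least 15.3-fold higher in MaSC-enriched than in luminal cells of virgin mice (adjusted p = 1.17e-08) and at least 29.2-fold higher at 12.5 dP (adjusted p = 4.85e-10). With pregnancy it rose in MaSC-enriched cells by log2 1.12 (SE 0.26, 2.18-fold, adjusted p = 0.0218). Probes B and C rose as well, by 1.14 (adjusted p = 0.0409) and 0.75 (adjusted p = 0.0288). The interaction was 0.80 (adjusted p = 0.217), and the luminal groups in it were at background. The rise of probe A lost its call in MaSC-enriched cells when virgin replicate 3 was left out (0.75, adjusted p = 0.0610) and likewise for pregnant replicate 3 (adjusted p = 0.0636) or 4 (adjusted p = 0.0700), and over the 11 other ways of processing adjusted p ran from 0.00714 to 0.0806. On the 1 chip with both groups the difference was 2.16, which compares 1 array with 1: pregnant replicate 4 with virgin replicate 3, whose removal ended the call.

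Wnt10a, known in mouse and human for hair and tooth development, was the other ligand of the MaSC-enriched fraction. Its level was 11.79, 8.94 and 12.12 in virgin and 8.76, 8.30, 9.38 and 9.73 in pregnant MaSC-enriched cells. Its mean was 5.18 in virgin and 5.22 in pregnant luminal cells, and no luminal array was above background. Virgin replicate 2 fell inside the range of the pregnant arrays, and the other virgin arrays were above all of them.

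Wnt10a was at least 39.0-fold higher in MaSC-enriched than in luminal cells of virgin mice (adjusted p = 2.90e-06) and at least 9.06-fold higher at 12.5 dP (adjusted p = 3.22e-05). Its pregnancy difference in MaSC-enriched cells was -1.91 (SE 0.56, 95% interval -3.11 to -0.70) and missed the threshold at adjusted p = 0.0743. Without virgin replicate 2 the difference was -2.91 (adjusted p = 0.000147) and the interaction -2.95 (adjusted p = 0.000715), while the interaction over all arrays was -1.94 (adjusted p = 0.171). With all arrays kept the pregnancy difference passed with median scaling (-2.12, adjusted p = 0.0447). It also passed with a term for chip (-2.72, adjusted p = 0.00159). Virgin replicate 2 was alone on its chip, so that term fitted this array exactly and in effect left it out of the difference. On the 1 chip with both groups it was -2.39, which compares 1 array with 1, pregnant replicate 4 with virgin replicate 3.

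**Figure D3:**
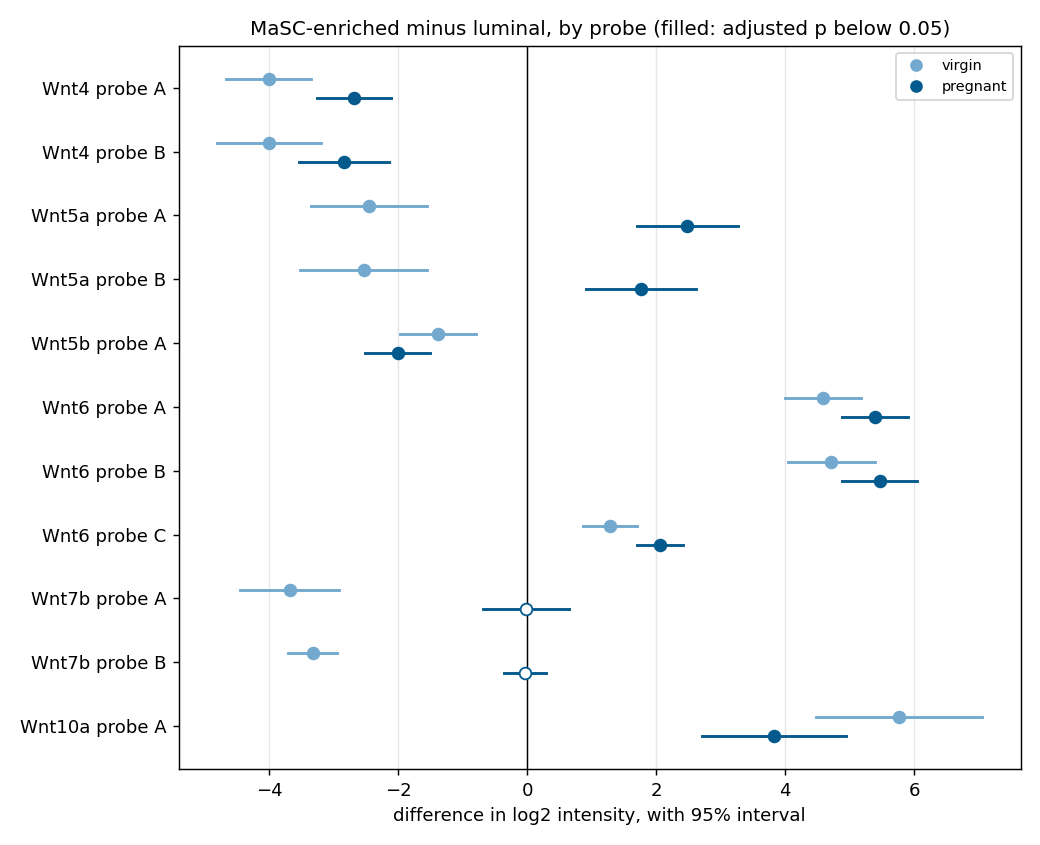
MaSC-enriched minus luminal difference in log2 intensity for the 11 tested Wnt ligand probes in virgin and pregnant mice, with 95% intervals and filled points for adjusted p below 0.05. The Wnt5a probes changed side between virgin and pregnant mice (-2.45 and 2.48 for probe A), and the Wnt7b probes lay near 0 at 12.5 dP, where both fractions were at background.

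Without each of the 14 arrays in turn, the same number of ligands passed the threshold between the fractions, 6 in virgin and 5 in pregnant mice. With pregnancy the count was 1 to 3 in MaSC-enriched and 2 to 3 in luminal cells.

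**Figure D4:**
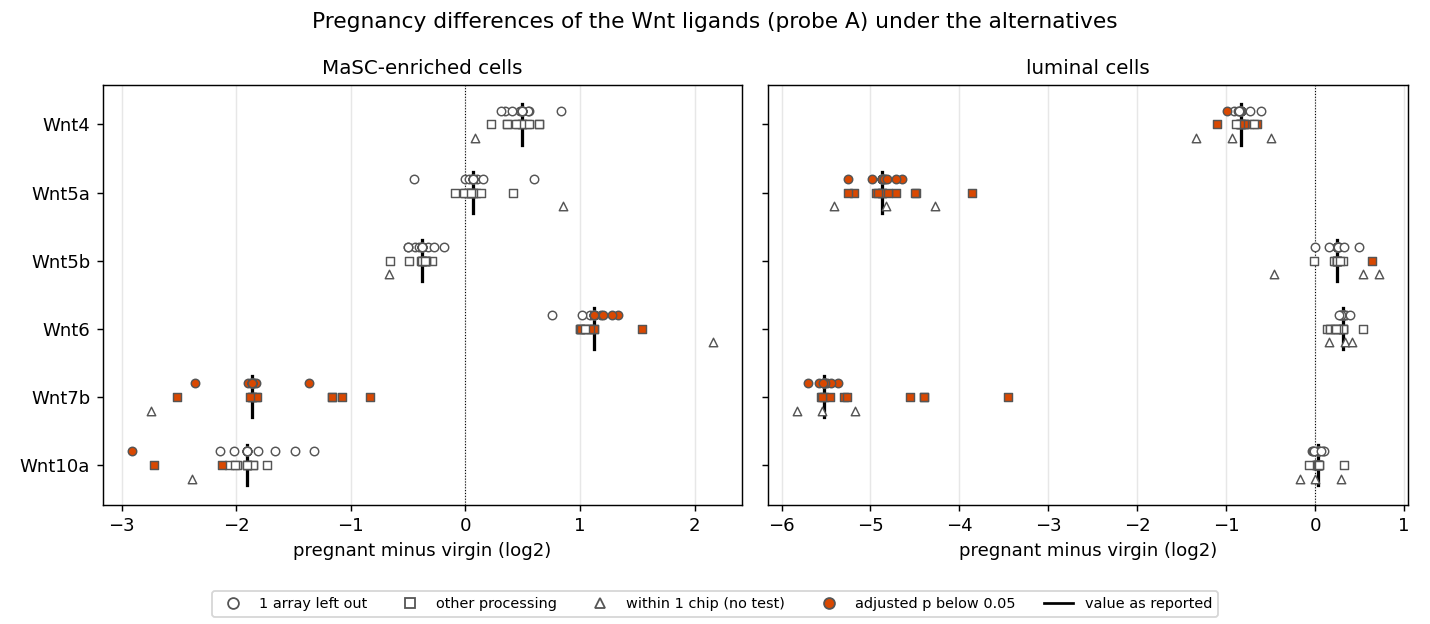
Pregnant minus virgin log2 difference of probe A of each ligand with 1 array left out (circles), with other processing (squares) and within 1 chip (triangles, no test), with a bar at the value as reported. The luminal differences of Wnt5a and Wnt7b, the latter fitted against levels at background, stayed below -3.4 throughout, while the filled points for Wnt6 and Wnt10a in MaSC-enriched cells were mixed with open ones.

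The array carried probes for 13 other Wnt ligand genes, with 20 probes. Of these probes 15 were above background on no array, and 8 of the 13 genes were above background with no probe. Wnt2 alone had a tested probe: it was above background on virgin MaSC-enriched replicates 1 and 2 (6.98 and 6.71), virgin luminal replicate 2 (7.47) and pregnant luminal replicate 3 (6.27). Its pregnancy differences were -0.87 in MaSC-enriched (adjusted p = 0.414) and -0.48 in luminal cells (adjusted p = 0.610). Wnt11 was above background on virgin MaSC-enriched replicates 1 and 3 (6.09 and 6.82).

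By likeness of profile over the 14 arrays, measured as the root mean square difference in log2 units after each profile was centred on its own mean, 3 genes were named for each ligand from 11034 genes. Nearest to Wnt5a were Man1a (0.36), Arhgef6 (0.48) and Hey1 (0.50). Nearest to Wnt7b were Il33 (0.56), Abcc3 (0.60) and Itih2 (0.70). These values mean that the typical array differed from the ligand's profile by 0.36 to 0.70 log2 units, against spans of several units between the groups.

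Nearest to Wnt4 were Bcl2l14 (0.35), Atp1b1 (0.35) and Nme7 (0.36). Nearest to Wnt5b were Slc35c1 (0.26), Syngr1 (0.29) and Rabggta (0.33). For the ligands of MaSC-enriched cells, Plin4 (0.32), Nkd1 (0.32) and Kcnmb1 (0.33) were nearest to Wnt6, and Abcb1b (0.63), Sbspon (0.78) and Igfbp3 (0.84) were nearest to Wnt10a, whose profile had no match as close.

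The rest of the pathway was read from lists of secretion genes, receptors, secreted inhibitors, intracellular components and targets. For secretion, 2 of 3 genes were tested and neither changed with pregnancy in either fraction (median differences of 0.41 in MaSC-enriched and -0.52 in luminal cells, against 0.03 and 0.05 over all genes). Porcn, the acyltransferase, had means of 10.81 in virgin and 11.46 in pregnant MaSC-enriched cells, and of 9.55 and 9.08 in luminal cells. Its interaction was 1.12 (adjusted p = 0.0371). At 12.5 dP Porcn and the carrier Wls were both higher in MaSC-enriched than in luminal cells.

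Of 15 receptors tested, 1 rose in MaSC-enriched cells, and 1 rose and 2 fell in luminal cells, with medians of 0.00 and -0.15. These counts, 1 and 3 of 15, were near the shares called among all genes, 5.07% and 21.6%. In luminal cells Fzd10, a Frizzled receptor, fell by 4.46 on the log2 scale (SE 0.43, adjusted p = 3.48e-06) to a level above background on 1 of 4 arrays. Ror2, a receptor of Wnt5a, fell by 2.18 (SE 0.31, adjusted p = 0.00015) from a mean of 7.71 to 5.53, and its interaction was 2.89 (adjusted p = 0.000905). In MaSC-enriched cells Ror2 had means of 8.67 and 9.37 (adjusted p = 0.236). Both Wnt5a and Ror2 thus fell in luminal cells, and neither passed the threshold in MaSC-enriched cells.

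Fzd9 was the receptor that rose in MaSC-enriched cells: it was above background on all 4 pregnant MaSC-enriched arrays and on none of the other 10 (adjusted p = 0.00331). The receptor that rose in luminal cells was Fzd5, by 0.96 (adjusted p = 0.00875), named here after its value was seen. Between the fractions, 7 receptors were higher in MaSC-enriched and 1 in luminal cells of virgin mice, and 10 and 1 at 12.5 dP, where 15.5% and 20.1% of all genes were higher in MaSC-enriched cells.

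Of 4 secreted inhibitors tested, 1 fell in MaSC-enriched cells, and 2 rose and 1 fell in luminal cells (medians of -0.38 and 0.93), where 5.07% and 21.6% of all genes were called. Sfrp1, a secreted decoy that binds Wnt proteins, moved in opposite directions: it fell by 1.42 on the log2 scale in MaSC-enriched cells (SE 0.28, adjusted p = 0.00866) and rose by 1.11 in luminal cells (adjusted p = 0.0103), with an interaction of -2.53 (adjusted p = 0.001). In luminal cells Dkk3, a member of the Dickkopf family, rose by 2.36 (SE 0.29, adjusted p = 3.67e-05). Sfrp2, another decoy, fell by 2.01 there (adjusted p = 0.00677) and was above background on 1 of 4 pregnant arrays.

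Among 10 intracellular components tested, 1 rose in MaSC-enriched cells, and 2 rose and 1 fell in luminal cells (medians of 0.14 and 0.20). With 10 genes, these counts were near the 5.07% and 21.6% called among all genes. Tcf7l1, a TCF factor known mainly as a repressor of Wnt targets, rose in both, by log2 0.88 in MaSC-enriched (SE 0.19, adjusted p = 0.0186) and by 2.37 in luminal cells (SE 0.19, adjusted p = 7.31e-07). Bcl9, a co-activator that binds beta-catenin, rose by 1.94 in luminal cells (adjusted p = 9.44e-06). The kinase Csnk1e, named after its value was seen, fell by 1.15 in luminal cells (adjusted p = 0.00269).

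Of 8 targets and feedback genes tested, 2 fell in MaSC-enriched cells and 3 rose in luminal cells (medians of -0.22 and 0.13), where 2.29% of all genes fell and 10.9% rose, respectively. Lgr5, an R-spondin receptor and a target of the pathway, fell in MaSC-enriched cells by 4.47 on the log2 scale (SE 0.27, adjusted p = 1.51e-06) and was above background there on 1 of 4 pregnant arrays. Nkd2, a feedback inhibitor, fell by 1.81 (adjusted p = 0.00227). In luminal cells Tnfrsf19 rose by 3.46 (SE 0.43, adjusted p = 4.43e-05), and Axin2, a feedback inhibitor widely used as a readout of beta-catenin signalling, rose by 1.86 (SE 0.29, adjusted p = 0.00034). The remaining luminal rise was that of Rnf43, named after its value was seen, by 0.82 (adjusted p = 0.0488). Axin2 had means of 8.81 and 7.98 in virgin and pregnant MaSC-enriched cells (adjusted p = 0.134), and its interaction was -2.69 (adjusted p = 0.000956).

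Of the pathway genes that rose in luminal cells, Axin2, Dkk3, Sfrp1, Tcf7l1, Tnfrsf19 and Fzd5 were each higher in MaSC-enriched than in luminal cells of virgin mice. Their luminal rises stood beside the higher basal-marker sum of pregnant luminal arrays given above, while Krt5 was at background on all luminal arrays. The part of basal cells in these rises was not tested. Bcl9 and Rnf43, which also rose in luminal cells, are not among the genes just named. Of the 10 intracellular components tested, Tcf7l1 and Bcl9 included, 1 was called higher in MaSC-enriched than in luminal cells of virgin mice. At 12.5 dP Tnfrsf19 had means of 10.01 in luminal and 7.82 in MaSC-enriched cells (adjusted p = 0.000471), and Fzd5 had means of 10.85 and 10.31 (adjusted p = 0.0595). Wnt6 and Wnt10a, the ligands of the MaSC-enriched fraction, were at background on all 7 luminal arrays in both states.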

How the data were processed

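The authors deposited a non-normalized table with intensity (arbitrary units) and detection p-values per probe for all 14 arrays, of which 0 columns went unused. The deposited series matrix held log2 values. BeadStudio and limma are named, without versions, per the submitters' processing notes. With an offset of 50 the steps below matched that matrix to a median of 0.00019 and a maximum of 0.0172 log2 units. RNA from the pools of mice was labelled, at most 250 ng of it, per the labels' protocols.

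In R 4.3.3, limma 3.58.1 corrected intensities by normexp (offset 16), the background being read from detection p-values, before quantile normalization and log2. Probes with detection p below 0.05 in at least 3 arrays were tested, 46.2% of all. Arrays give no read depth. A symbol was held by 34885 probes, 18 had several and 10378 none. Probe sequences were not used here, so cross-hybridisation between related ligands was not checked. A gene stood for its tested probe with the highest mean.

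A limma model with 1 mean per group was fitted to all arrays (10 residual and 4.64 prior degrees of freedom), with 5 two-sided comparisons and Benjamini-Hochberg adjustment over all tested probes. The procedure was tested on simulated data. Alternatives covered background correction, normalization, filter, array weights, deposited values, probe choice, chip, replicate number and left-out arrays. Named were all 6 members and their probes and other ligands with a tested probe. The 2 largest called differences per pathway list and pregnancy comparison and the 3 genes of nearest profile were named too. So were marker genes where a result turned on them (Krt5, Krt14, Esr1, Pgr and Tnfsf11). Named beyond that rule were Fzd5, Csnk1e and Rnf43, whose lists had few calls, and Porcn, Wls and Wnt11. The 6 genes, the lists and the tests were chosen with earlier results of these data known. The labels do not say whether equal replicate numbers mark the same pool, and the main fit did not pair the arrays. The check given below did not settle this for virgin mice.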

Additional observations from a re-analysis of the deposited data

Results flagged for a closer look

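The pregnancy difference differed between the fractions for 2 ligands. For Wnt5a the difference in MaSC-enriched cells exceeded that in luminal cells by 4.94 on the log2 scale with probe A and by 4.29 with probe B. For Wnt7b it did so by 3.66 with probe A and by 3.29 with probe B, and both pregnant groups were at background with either probe.

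Among the 11 tested probes in the 2 groups of 4 arrays, 1 array stood apart from the others of its group. Wnt5a probe B read 6.64 in pregnant MaSC-enriched replicate 1, below the 7.12 to 7.21 of the other 3 arrays, while probe A read 9.48 there, the highest of its group. Chance sets apart about 1 group in 20, and 22 were examined.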

How the results depend on the processing

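For the 6 ligands in 5 comparisons, 745 values were recomputed under alternatives: 717 kept their side of the threshold, 7 lost the call, 21 gained it, and 0 called values changed sign. The sign turned in 12 values that were called neither as reported nor under the alternative, among them Wnt5a in MaSC-enriched cells without virgin MaSC-enriched replicate 3 (-0.45) and Wnt5b in luminal cells with median scaling (-0.0075). The 7 losses were all of Wnt6 in MaSC-enriched cells, with cyclic loess (1.06, adjusted p = 0.0806), median scaling (1.00, 0.0714), array weights (1.00, 0.0605), the replicate block (1.05, 0.0547) and without the 3 arrays named above. The number of ligands called with pregnancy in MaSC-enriched cells, 2 as reported, was 1 with cyclic loess, array weights and the replicate block, and 1 to 3 without single arrays. In luminal cells it was 4 with array weights, where Wnt4 (-0.65, adjusted p = 0.0116) and Wnt5b (0.64, adjusted p = 0.00896) passed, and 2 to 3 without single arrays. The interaction count was 4 with array weights and with chip as a block, and 2 to 3 without single arrays. Between the fractions the counts were 6 and 5 without every array. Probes called with pregnancy in MaSC-enriched cells, 934 as reported, were 524 with array weights and 484 without pregnant MaSC-enriched replicate 2 to 1971 without virgin MaSC-enriched replicate 2. In luminal cells 4062 became 9231 with array weights and 2832 to 4694 without single arrays. The interaction, 1564 as reported, gave 2677 with array weights and 1038 to 2605 without single arrays, and the fraction comparisons gave 4751 to 6411 in virgin and 7055 to 9111 in pregnant mice. The causes were not tested. Median scaling moved the median of all probes by -0.21 in the luminal pregnancy comparison, by 0.10 in the pregnant fraction comparison and by 0.14 in the interaction, and cyclic loess moved the pregnant fraction comparison by 0.12. The share of called probes that were higher went from 55.7% to 39.6% in MaSC-enriched pregnancy, from 49.8% to 25.5% in luminal pregnancy and from 62.6% to 75.0% in the interaction under median scaling.

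Same-numbered MaSC-enriched and luminal arrays correlated in their deviations at 0.05, 0.42 and 0.38 in virgin mice. In pregnant mice they did so at -0.16, 0.00, -0.16 and 0.09. Arrays of different numbers correlated at -0.44 to 0.08 in virgin and at -0.29 to 0.44 in pregnant mice. Pairing by number was thus not settled for virgin mice and did not show in pregnant mice, and the main fit left it out. The replicate block took 2 forms. For the pregnancy comparisons it was the replicate number alone, which ties virgin to pregnant arrays although these are different mice. For the fraction comparisons and the interaction it was the replicate within each state. It gave 815 and 3563 probes called with pregnancy in MaSC-enriched and luminal cells, 6444 and 8708 between the fractions and 1828 in the interaction. It changed no ligand's call besides that of Wnt6, which was lost under the first form and so does not measure pairing by pool. The stricter filter left out Wnt7b, so it gave no count of ligands. Detection sets the limit for Wnt6, Wnt7b and Wnt10a, whose low groups lay at background.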
